A study of Mus musculus with 4 samples.

Results

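The 9 membrane adenylyl cyclase genes, Adcy1 to Adcy9, were described in brain tissue of naive mice of the inbred strain C57BL/6. They were taken by symbol from deposited tables of 25044 entries, and all 9 were present. The series' design text places the tissue in the parasubthalamic nucleus, a small cell group at the edge of the lateral hypothalamus, while the sample labels give only brain. The 4 libraries, called replicates 1 to 4, all come from untreated animals whose age and sex were not stated, and no stressed animals were sequenced. Apart from the numbering, no label ties a library to an animal of its own, and the p-values then reflect the spread of these samples alone, which may be technical. Comparisons are therefore between genes within a library, and libraries are described with no test other than Dixon's for a distant value.

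Adenylyl cyclases make the second messenger cAMP from ATP, and each membrane isoform has paired catalytic domains joined by membrane-spanning segments. Receptors coupled to the stimulatory G protein, such as PAC1R, the receptor for the neuropeptide PACAP, switch them on, and the isoforms differ in what else acts on them. Adcy1, Adcy3 and Adcy8 respond to calcium with calmodulin, Adcy2, Adcy4 and Adcy7 are enhanced by G protein beta-gamma subunits, Adcy5 and Adcy6 are inhibited by Gi proteins and by calcium, and Adcy9 stands apart with little sensitivity to forskolin.

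Levels are in FPKM, a fragment count scaled by transcript length and sequencing depth, a unit inferred from the values because no label names it, so that genes of different length can be set side by side. Library totals lay between 428612 and 442836 FPKM, and the spacing of low values implied about 19400000 to 21100000 fragments per library. Mitochondrial transcripts took 19.1% to 22.2% of the totals. All 8 parasubthalamic markers were detected in all libraries. Their summed levels ran from 318 FPKM in replicate 3 to 512 in replicate 1, where 7 of the 8 were highest. Some libraries stood apart by markers of other regions. In replicate 3 the summed thalamus markers reached 361 FPKM against 25.1 to 67.4 elsewhere, in replicate 2 the medial hypothalamus markers reached 183 against 12.6 to 36.01, and in replicate 1 the markers of spinal cord and caudal hindbrain reached 18.8 against 0.0745 to 0.477. The midbrain dopamine markers reached 701 FPKM in replicate 2 against 320 to 365, with 6 of 7 highest there, and the lateral hypothalamus markers summed to 173 in replicate 3 against 440 to 760. Of these last markers, Pmch (54.9 FPKM) and Hcrt (2.60) were lowest in replicate 3. Cartpt, at 113 FPKM there, was lowest in replicate 1 at 86.5, and Lhx9 was highest in replicate 3 at 2.73.

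The stretches before the start sites are shown for 4 members because they range from 5 CpG to 34, the most found in the family. They are the 250 bases upstream of the RefSeq start in GRCm38.p6, written 5′ to 3′ along the gene's strand, with every CpG dinucleotide in capitals.
Adcy1, chr11:7063183-7063432, plus strand: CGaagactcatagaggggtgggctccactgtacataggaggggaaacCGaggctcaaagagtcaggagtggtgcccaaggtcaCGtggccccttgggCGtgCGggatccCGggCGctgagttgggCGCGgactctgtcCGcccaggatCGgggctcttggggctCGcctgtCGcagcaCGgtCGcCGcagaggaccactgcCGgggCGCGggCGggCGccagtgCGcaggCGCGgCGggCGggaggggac
Adcy5, chr16:35154614-35154863, plus strand: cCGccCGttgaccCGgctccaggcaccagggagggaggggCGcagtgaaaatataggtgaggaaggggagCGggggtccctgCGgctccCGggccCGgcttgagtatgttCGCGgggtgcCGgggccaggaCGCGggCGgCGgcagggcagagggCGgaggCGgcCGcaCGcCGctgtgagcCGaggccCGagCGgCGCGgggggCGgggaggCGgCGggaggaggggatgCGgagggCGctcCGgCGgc
Adcy9, chr16:4420499-4420748, minus strand: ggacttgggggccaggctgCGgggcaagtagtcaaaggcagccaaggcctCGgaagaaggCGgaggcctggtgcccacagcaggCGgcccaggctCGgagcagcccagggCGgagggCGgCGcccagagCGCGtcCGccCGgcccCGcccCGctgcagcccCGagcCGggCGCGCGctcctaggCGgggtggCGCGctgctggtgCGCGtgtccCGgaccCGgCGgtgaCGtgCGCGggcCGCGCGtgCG
Adcy7, chr8:88282742-88282991, plus strand: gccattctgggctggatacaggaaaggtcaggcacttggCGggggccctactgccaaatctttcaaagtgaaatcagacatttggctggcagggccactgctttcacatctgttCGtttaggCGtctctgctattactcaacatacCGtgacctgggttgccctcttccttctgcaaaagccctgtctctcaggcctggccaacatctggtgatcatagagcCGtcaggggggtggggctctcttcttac
In all, 10 windows matched 7 members, while Adcy6 and Adcy8 had no match. The windows held 32 CpG for Adcy5, 34 for Adcy9, 26 for Adcy1 and 23 for Adcy2. Adcy3 had 27 in the first of its windows and 6 in the other. Adcy4 held 13, and the 3 windows of Adcy7 held 5, 3 and 3. All 3 windows of Adcy7 lie inside the annotated gene, which starts at 88272403 on the plus strand. The windows of Adcy3 also lie inside its annotated gene, which starts at 4133103 on the plus strand. For Adcy7 and Adcy3 the stretch before the annotated start was not examined. The window of Adcy4, 55784073 to 55784322, lies partly inside its gene, whose annotated start is 55784095 on the minus strand. Across 32851 windows of the same length the median was 6, and 13.3% held 23 or more. CpG content did not follow the order of levels, since Adcy9 had the most CpG and was the member with the second lowest level. The cAMP response element TGACGTCA, which itself holds a CpG and was searched on both strands, was found in 0 of the 10 windows and in 1.55% of all windows. The TATAAA motif, also searched on both strands, was absent from the 10 windows and present in 12.4% of all. Such counts describe these letters in these windows.

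Adcy5 and Adcy2 had the highest levels of the family, and Adcy7, Adcy9 and Adcy4 the lowest. The 9 genes summed to 86.0 ± 3.19 FPKM (SD, n = 4), of which Adcy5 and Adcy2 together made 51.6% ± 4.10. By mean level the order was Adcy5, Adcy2, Adcy3, Adcy1, Adcy8, Adcy6, Adcy7, Adcy9 and Adcy4. Among the 17630 genes whose mean reached 0.1 FPKM, this ran from percentile 81.8 for Adcy5 to 30.6 for Adcy4.

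**Figure D1:**
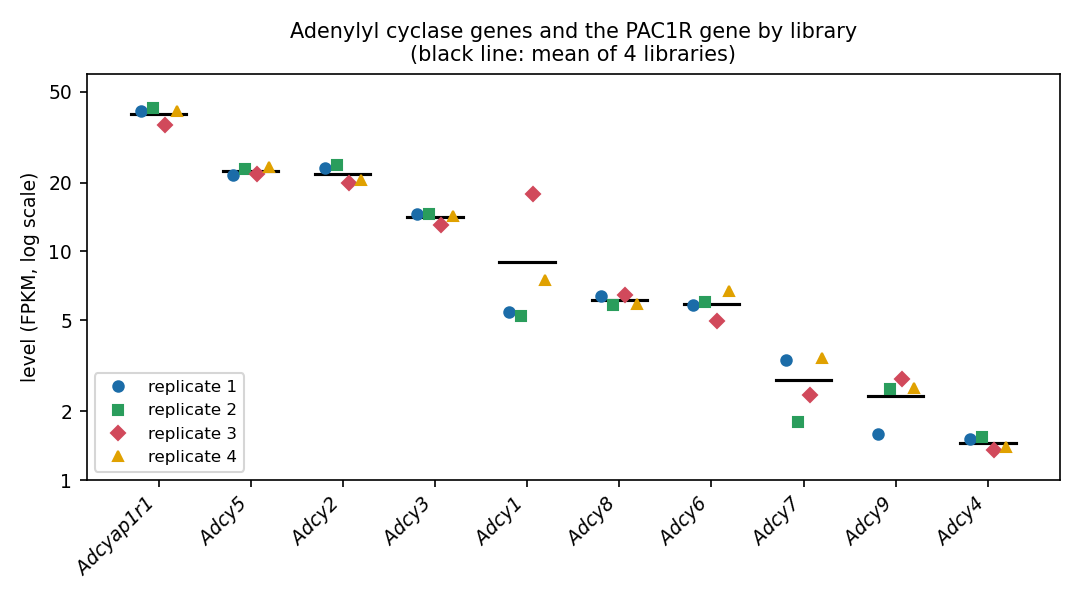
Level of Adcyap1r1, which encodes PAC1R, and of the 9 adenylyl cyclase genes in each library, in FPKM on a log axis, with 1 symbol per library and a black line at the mean. Most genes have their 4 libraries close together, while the replicate 3 value of Adcy1, 17.8 FPKM, sits above its other values of 5.24 to 7.52.

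Adcy5 (ENSMUSG00000022840, GRCm38 chromosome 16, 35154877 to 35305738, plus strand, 21 exons) encodes the main cyclase of the striatum. It measured 21.6, 23.03, 21.8 and 23.4 FPKM in replicates 1 to 4, a mean of 22.5 ± 0.887 (SD, n = 4). All 4 libraries lay within a factor of 1.08 of each other. The 7 striatal markers summed to 51.2 to 62.3 FPKM in the same libraries, and none was at 0. Among them the D1 dopamine receptor gene Drd1 lay at 0.919 to 1.33 FPKM and the adenosine receptor gene Adora2a at 0.712 to 0.981. The D2 receptor gene Drd2 lay at 16.5 to 27.7 and Ppp1r1b, a phosphatase inhibitor gene, at 16.4 to 20.5 FPKM. Their part in the Adcy5 level was not tested.

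Adcy2 (ENSMUSG00000021536, chromosome 13, 68620043 to 68999541, minus strand, 25 exons) encodes a neuronal cyclase enhanced by beta-gamma subunits and by protein kinase C. It measured 23.1, 23.9, 19.9 and 20.5 FPKM in replicates 1 to 4, a mean of 21.9 ± 1.96. Its range overlapped that of Adcy5: Adcy2 was the higher of the pair in replicates 1 and 2 and the lower in replicates 3 and 4. Adcy3 (ENSMUSG00000020654, chromosome 12, 4133103 to 4213525, plus strand, 22 exons), known from olfactory cilia and from the primary cilia of neurons, measured 14.6, 14.6, 13.1 and 14.3 FPKM, a mean of 14.1 ± 0.702. Each of its libraries lay below each of those of Adcy5 and Adcy2.

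Adcy1 (ENSMUSG00000020431, chromosome 11, 7063489 to 7178506, plus strand, 20 exons), a calmodulin-stimulated neuronal cyclase, measured 5.42, 5.24, 17.8 and 7.52 FPKM, a mean of 8.998 ± 5.97. Replicate 3 was 2.94-fold above the mean of the other libraries, and without it the mean was 6.06 ± 1.27 (SD, n = 3). In that library Adcy1 ranked 3 of the 9 members, above Adcy3, whereas it ranked 6 in replicates 1 and 2.

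Adcy8 (ENSMUSG00000022376, chromosome 15, 64697084 to 64922296, minus strand, 18 exons) is the other strongly calmodulin-stimulated isoform. It measured 6.35, 5.85, 6.44 and 5.88 FPKM, a mean of 6.13 ± 0.310. Adcy6 (ENSMUSG00000022994, chromosome 15, 98589973 to 98610076, minus strand, 22 exons), the close relative of Adcy5, measured 5.85, 6.01, 4.98 and 6.71 FPKM, a mean of 5.89 ± 0.711. The ranges of Adcy8 and Adcy6 overlapped, each being the higher in 2 of 4 libraries.

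Adcy7 (ENSMUSG00000031659, chromosome 8, 88272403 to 88329962, plus strand, 28 exons), an isoform known from immune cells, measured 3.36, 1.79, 2.35 and 3.43 FPKM, a mean of 2.73 ± 0.800. Adcy9 (ENSMUSG00000005580, chromosome 16, 4287529 to 4420498, minus strand, 12 exons) measured 1.58, 2.49, 2.77 and 2.52 FPKM, a mean of 2.34 ± 0.521. Adcy7 was above Adcy9 in replicates 1 and 4 and below it in replicates 2 and 3. Adcy4 (ENSMUSG00000022220, chromosome 14, 55769057 to 55784095, minus strand, 26 exons), known from endothelium among other tissues, measured 1.51, 1.54, 1.35 and 1.40 FPKM, a mean of 1.45 ± 0.0896. It ranked last of the 9 in every library, and at the implied depth its values rest on about 92 to 112 fragments per library, against 2970 to 3341 for Adcy5.

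Which transcript lengths entered the deposited values is not stated. The longest annotated coding transcripts of the members run from 3501 bases for Adcy4 to 12259 for Adcy1. Adcy4 and Adcy6 also have coding transcripts as short as 256 and 425 bases. Adcyap1r1, to which the members are compared below, has 8 coding transcripts of 540 to 6107 bases. Another transcript length would move a gene's level by the same factor in every library. That would change folds between genes, and with them the p-values, and could change the order and tiers. The p-values take their error from the spread between libraries, so they make no allowance for an unsuitable length. Exons of Adcy2, Adcy3 and Adcy6 overlap genes on the other strand. One of these, Cenpo, which overlaps Adcy3, lay at 1.13 to 2.14 FPKM, and whether reads were assigned by strand is not stated.

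To say which neighbours in the order differ beyond their spread, each pair of members was compared within libraries on log2(FPKM + 0.1) by limma, fitted across all genes with the member as reference. Of the 36 pairs, 30 passed at an adjusted p of 0.05, and the same 30 pairs had the same direction in 4 of 4 libraries. Most genes of any kind differ from a given reference: of 17629 genes, 63.1% passed against Adcy1, 94.8% against Adcy2, 94.9% against Adcy3, 93.7% against Adcy4, 96.3% against Adcy5, 91.5% against Adcy6, 84.5% against Adcy7 and 93.0% against Adcy8. The count of pairs is therefore not particular to the family, and what it gives is the order at the unstated transcript lengths.

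Adcy5 was 1.59-fold above Adcy3 (log2 difference 0.66, SE 0.05, limma adjusted p = 6.82e-06), and Adcy2 was 1.54-fold above Adcy3 (0.62, SE 0.07, adjusted p = 8.05e-05). Adcy3 was 2.28-fold above Adcy8 and 2.39-fold above Adcy6. Adcy6 was 2.17-fold above Adcy7 (1.12, SE 0.17, adjusted p = 0.000409). At the lower end, Adcy9 was 1.55-fold above Adcy4 (0.63, SE 0.15, adjusted p = 0.00570) and Adcy7 was 1.77-fold above it. From the top to the bottom of the family, Adcy5 was 14.6-fold above Adcy4 (3.86, SE 0.06, adjusted p = 6.01e-10). The levels fell into tiers, Adcy5 with Adcy2, then Adcy3, then Adcy8 with Adcy6, then Adcy7 with Adcy9, then Adcy4, with Adcy1 across more than 1 tier.

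The pairs that did not pass were Adcy5 with Adcy2, Adcy8 with Adcy6, Adcy7 with Adcy9, and Adcy1 with Adcy3, Adcy8 and Adcy6. Adcy5 exceeded Adcy2 by 0.04 on the log2 scale, with a 95% interval from -0.15 to 0.23 (limma adjusted p = 0.616). That interval spans ratios from 0.904 to 1.17. Adcy8 exceeded Adcy6 by 0.06, with an interval from -0.22 to 0.34 (adjusted p = 0.616), or ratios from 0.860 to 1.27. Adcy7 exceeded Adcy9 by 0.20, with a wider interval from -0.55 to 0.94 (adjusted p = 0.572).

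Adcy1 had the widest intervals. It differed from Adcy8 by 0.35 (95% interval -0.73 to 1.44, limma adjusted p = 0.522) and from Adcy6 by 0.42 (-0.75 to 1.59, adjusted p = 0.482). Adcy3 exceeded Adcy1 by 0.84, in 3 of 4 libraries, with an interval from -0.30 to 1.97 (adjusted p = 0.165). This last pair did pass with Adcy3 as the reference gene (adjusted p = 0.0304) and without replicate 3, at 1.26 (adjusted p = 0.00333). Without replicate 3 Adcy1 lay at -0.01 against Adcy8 and -0.05 against Adcy6, neither of which passed. With all libraries Adcy1 passed as lower than Adcy5 (limma adjusted p = 0.0266) and Adcy2 (0.0343) and as higher than Adcy7 (0.0310), Adcy9 (0.0125) and Adcy4 (0.00507). Its calls below Adcy5 and Adcy2, and above Adcy7, were lost without replicate 1, 2 or 4, where limma's adjusted p ran from 0.0828 to 0.189. Its call above Adcy9 was lost without replicate 1 (adjusted p = 0.0850) or 4 (0.0974), and its call above Adcy4 without replicate 4 (0.0596).

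**Figure D2:**
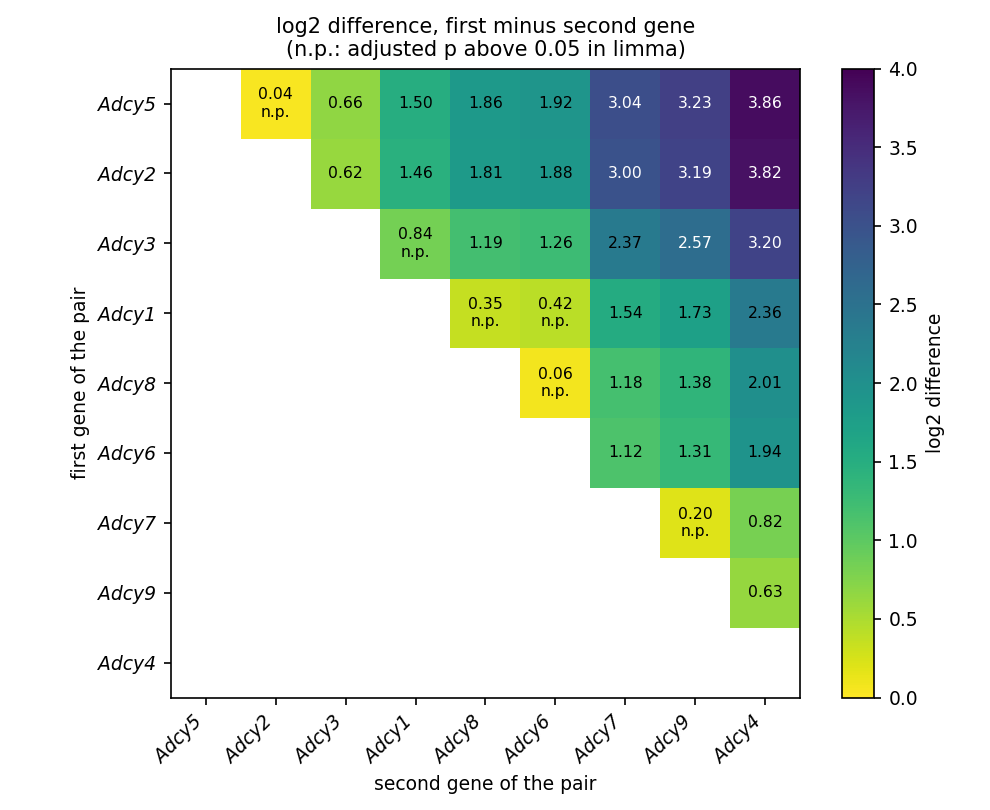
Matrix of log2 differences between the 9 adenylyl cyclase genes, ordered by mean level, as row gene minus column gene, with n.p. marking pairs whose adjusted p was above 0.05 in limma. The 6 pairs marked n.p. lie next to or near the diagonal, and 3 of them involve Adcy1.

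The spread of each member between libraries was set beside that of genes of like level, taken as those within 0.5 log2 units of its mean. The SD of Adcy1 on the log2 scale was 0.81 against a median of 0.13 for 2677 genes of like level, and 99.3% of them had a smaller SD. Without replicate 3 the SD of Adcy1 was 0.28. Adcy7 (0.43 against 0.19) and Adcy9 (0.35 against 0.20) also had more spread than the median, as did Adcy6 (0.17 against 0.14) and Adcy2 (0.13 against 0.11). Adcy5 (0.06 against 0.11), Adcy3 (0.07 against 0.11), Adcy8 (0.07 against 0.14) and Adcy4 (0.08 against 0.24) had less. The place of Adcy9 and Adcy6 rested on 1 library each: the SD of Adcy9 was 0.081 without replicate 1 and that of Adcy6 was 0.10 without replicate 3, both below those 4-library medians. The SD of Adcy3 was 0.019 without replicate 3. These values are a description of the libraries, with no test.

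Adcy1 was highest in replicate 3, next in replicate 4 and lower in replicates 1 and 2. The summed thalamus markers had the same order of libraries, at 361, 67.4, 35.2 and 25.1 FPKM from the highest to the lowest, and all 8 of them were highest in replicate 3. Prkcd, a protein kinase C gene of thalamic relay neurons, was at 172 FPKM there against 3.72 to 13.4 elsewhere, and the transcription factor gene Tcf7l2 at 42.0 against 6.14 to 17.6. None of the 8 was at 0 in any library. The markers rose more steeply than Adcy1 did, 8.47-fold in sum against 2.94-fold over the mean of the other libraries. The part of thalamic tissue in the Adcy1 values was not tested, and in bulk tissue more cells of a type cannot be told apart from more RNA per cell.

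The other members had other orders of libraries. Adcy2, Adcy3, Adcy4 and Adcy6 had their lowest value in replicate 3, as did Adcyap1r1, while Adcy8 and Adcy9 had their highest value there at 6.44 and 2.77 FPKM. Adcy9 was lowest in replicate 1, at 1.58 FPKM, which was also the library with the lowest sum of the 6 oligodendrocyte markers, at 5649 FPKM against 6530, 8196 and 7625 in replicates 2 to 4. None of those markers was at 0, and their part in the Adcy9 value was not tested. Without replicate 1 Adcy9 lay at 2.596 ± 0.154 FPKM (SD, n = 3).

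Adcy7 was lowest in replicate 2, at 1.79 FPKM, where the 6 microglia markers had their highest sum, 92.9 FPKM against 76.0 to 84.4. Adcy4 varied little, and the 6 endothelial markers summed to 78.6, 70.5, 73.4 and 62.0 FPKM in replicates 1 to 4. None of these markers was at 0 in any library, and their part in the levels of Adcy7 and Adcy4 was not tested.

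**Figure D3:**
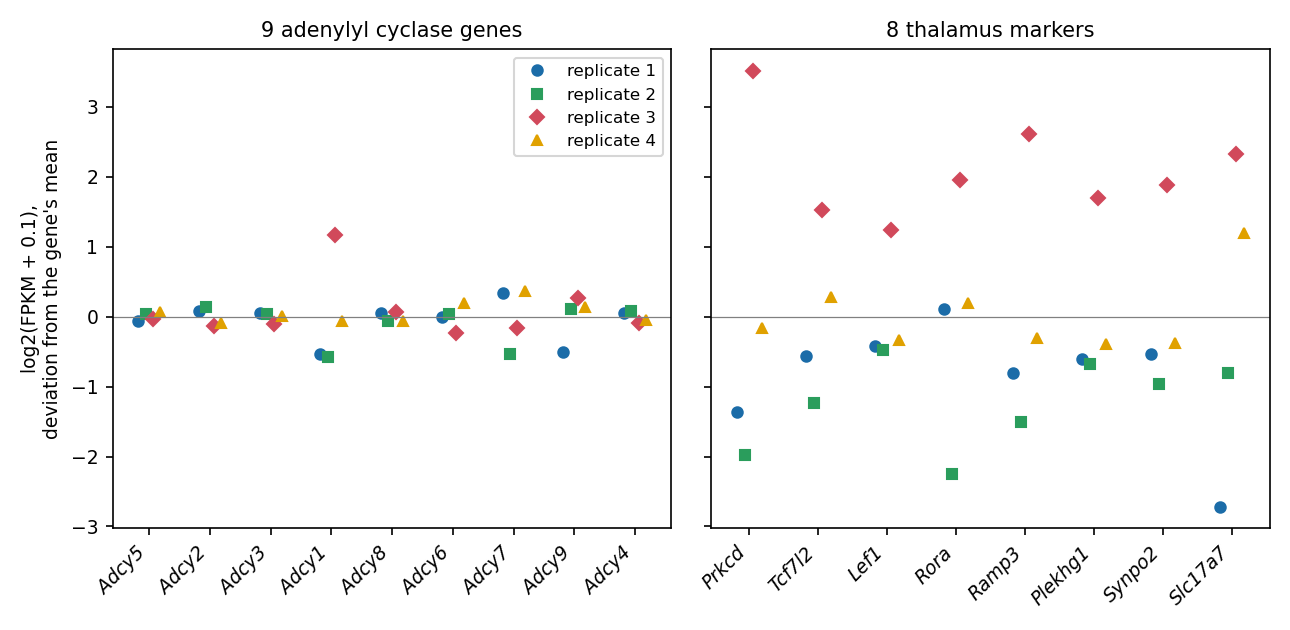
Deviation of log2(FPKM + 0.1) from each gene's mean, for the 9 adenylyl cyclase genes (left) and the 8 thalamus markers (right), with 1 symbol per library. Adcy1 in replicate 3 lies above the other cyclases, and all 8 thalamus markers are highest in that library.

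Genes with the nearest profile over the 4 libraries were looked up for the 3 members with the largest SD, among 13035 genes averaging at least 1 FPKM. Likeness was the root mean square difference between the genes' log2 deviations, so a smaller value means a closer profile. Near Adcy1 were Shank3, a scaffold of excitatory synapses, at 0.09, and Cox6a2, a subunit of cytochrome c oxidase, at 0.13. Shank3 measured 6.87, 6.53, 19.6 and 8.39 FPKM in replicates 1 to 4. In all, 16 of the 13035 genes lay within 0.2 of Adcy1, among them Lef1 of the 8 thalamus markers.

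Near Adcy7 were the predicted genes Gm48551 (0.04) and Gm11627 (0.10) and the anion channel gene Best1 (0.05), with 69 genes within 0.2. Near Adcy9 were the netrin receptor gene Unc5b (0.01), a locus without an Ensembl identifier (0.03) and Daam2, a formin gene (0.03), with 901 genes within 0.2. With 4 libraries many genes share such a profile, and nearness is a description of these libraries.

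By regulation, with each gene in a single class, the calcium-stimulated, beta-gamma and Gi-inhibited classes each took between 30.4% and 33.9% of the family's summed FPKM. These are means over libraries, and they depend on that assignment. Adcy1, Adcy3 and Adcy8 together made 33.9% ± 4.97 (SD, n = 4), Adcy5 and Adcy6 made 33.0% ± 2.46, and Adcy2, Adcy4 and Adcy7 made 30.4% ± 3.31. Adcy9 made 2.72% ± 0.546. The calcium-stimulated class held 31.7%, 30.4%, 41.3% and 32.3% in replicates 1 to 4, and its sum of 37.4 FPKM in replicate 3 stood above the 25.7 to 27.7 FPKM of the others. Without that library its share was 31.4%, below the 34.2% of Adcy5 and Adcy6. With the median of each class in place of its sum the shares were far apart, at 52.2% for the Gi-inhibited class, 29.2% for the calcium-stimulated class and 10.04% for the beta-gamma class.

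Of the 6 ratios between classes, the 3 against Adcy9 had the same direction in 4 of 4 libraries, with the calcium-stimulated sum 12.6-fold, the Gi-inhibited sum 12.4-fold and the beta-gamma sum 11.3-fold above it. Each had an exact sign-flip permutation p of 0.13, 2-sided (adjusted p = 0.25 over 6 ratios), which is the smallest that 4 libraries allow, so no ratio could pass. Among the larger classes the ratios were 1.11, 1.09 and 1.02, with exact permutation p of 0.625, 0.25 and 1. Within the classes, the sums rested on Adcy3 in 3 of 4 libraries and on Adcy1 in replicate 3, on Adcy2, and on Adcy5.

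**Figure D4:**
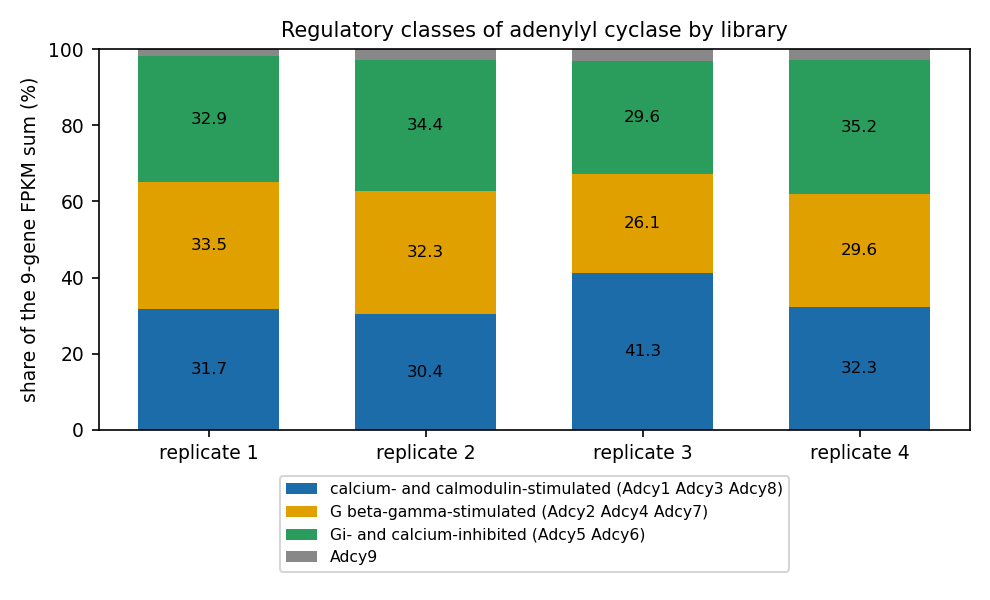
Share of the summed FPKM of the 9 genes held by each regulatory class, in percent, stacked per library. The 3 larger classes hold between 26.1% and 41.3% each, and the calcium-stimulated class is largest in replicate 3.

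PACAP acts on these enzymes through PAC1R, so each member was set against Adcyap1r1. Adcyap1r1 measured 41.1, 42.4, 35.7 and 41.0 FPKM in replicates 1 to 4, and every member lay below it in every library. Adcy5 was 1.78-fold lower (log2 difference -0.83, SE 0.06, limma adjusted p = 4.07e-06) and Adcy2 1.83-fold lower (-0.87, SE 0.06, adjusted p = 2.46e-06). Adcy3 was 2.82-fold lower, Adcy1 5.03-fold, Adcy8 6.43-fold and Adcy6 6.73-fold. Adcy7, Adcy9 and Adcy4 were 14.6-fold, 16.7-fold and 25.9-fold lower. These folds, and the place of every member below the receptor gene, hold at the unstated transcript lengths, that of Adcyap1r1 included.

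All 9 passed as lower, but 88.5% of the 17629 genes tested were also called lower than Adcyap1r1 and 9.09% higher, so the count says little of the family. The median difference over all genes was -3.02. The members' own differences ran from -0.83 to -4.69, on either side of that median.

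Other genes of the cAMP pathway were set against Adcyap1r1 in the same fit, in 10 lists. Of their 120 genes 115 were tested, with 24 higher, 85 lower and 6 not passing. Over all 17629 genes tested, 88.5% were lower and 9.09% higher. Among the G proteins that act on the cyclases, Gnas, the stimulatory alpha subunit, was 24.1-fold higher at 967 ± 47.1 FPKM (SD, n = 4). Gnal, the related olfactory and striatal subunit, lay at 34.6 ± 5.08 FPKM and did not pass (-0.22, limma adjusted p = 0.0986). Gnas was thus far above each cyclase, the highest of which was Adcy5 at 22.5 FPKM.

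Of 5 inhibitory alpha subunits 3 were higher than Adcyap1r1 and 2 lower. Gnao1, the main neuronal Go subunit, was at 135 ± 5.13 FPKM, Gnai2 at 119 ± 10.8 and Gnai1 at 63.5 ± 4.01. Of 15 beta and gamma subunits 5 were higher and 10 lower, led by Gnb1 at 163 ± 1.12 FPKM, Gnb2 at 144 ± 10.1 and the neuronal gamma subunit Gng3 at 90.7 ± 5.97.

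The calcium arm held 9 higher, 4 lower and 1 gene, Camk2a, that did not pass, of 14 tested. Calm2 and Calm3, which encode the calcium sensor calmodulin that binds Adcy1 and Adcy8, lay at 858 ± 42.9 and 504 ± 22.6 FPKM. Of 9 protein kinase C genes 0 were higher, 6 were lower and 3, Prkcd, Prkcb and Prkcz, did not pass. At an unadjusted p under 0.05 in the higher direction there were also 0 of the 9. Prkcb lay at 45.4 ± 4.96 and Prkcz at 39.9 ± 5.35 FPKM, while Prkcd averaged 48.7 ± 82.2 through replicate 3.

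Of 8 anchors and regulators, Cap1, a cyclase-associated and actin-binding protein gene, was higher at 57.5 ± 2.86 FPKM, and 7 were lower. Its relative Cap2 lay at 27.2 ± 0.903 and Rgs2, whose product can inhibit cyclases, at 22.8 ± 1.605 FPKM. Ric8b, which encodes a chaperone of stimulatory alpha subunits, lay at 21.2 ± 1.64 FPKM, and Akap5, an anchoring protein gene, at 1.76 ± 0.505. Both were named after their values were seen.

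Downstream, 5 of 11 effectors of cAMP were higher and 6 lower. The regulatory subunits of protein kinase A led, Prkar1b at 309 ± 20.4 and Prkar1a at 286 ± 19.3 FPKM, with the catalytic subunit gene Prkacb at 149.6 ± 18.3. Of 16 phosphodiesterases that can break cAMP down, 15 were lower and 1, Pde1b, a calmodulin-dependent enzyme, did not pass at 43.0 ± 5.27 FPKM. Pde4b followed at 26.2 ± 1.38 and Pde2a at 23.3 ± 6.27 FPKM.

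Other nucleotide cyclases were lower in 8 of 8 tested. The soluble guanylyl cyclase subunits Gucy1b1 and Gucy1a1, which respond to nitric oxide, lay at 31.6 ± 1.58 and 11.9 ± 1.90 FPKM, and Npr2, a natriuretic peptide receptor with guanylyl cyclase activity, at 10.8 ± 1.10. Adcy10, the soluble adenylyl cyclase that is not a member, was listed at 0 in replicates 1 to 3 and at 0.0140 FPKM in replicate 4. Beside Adcyap1r1, 27 of 27 other receptors known to couple to stimulatory G proteins were lower, led by Htr7, a serotonin receptor, at 9.30 ± 0.8291 and Gpr12, an orphan receptor, at 8.66 ± 2.69 FPKM. For the phosphodiesterases, the other nucleotide cyclases, these receptors and the 9 members, as for protein kinase C, limma called 0 genes higher, also at an unadjusted p under 0.05. With 88.5% of all genes tested lower and 9.09% higher, such counts say little of these lists. The list medians ran from -5.20 for these receptors to 2.19 for stimulatory alpha subunits, against -3.02 for all genes.

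**Figure D5:**
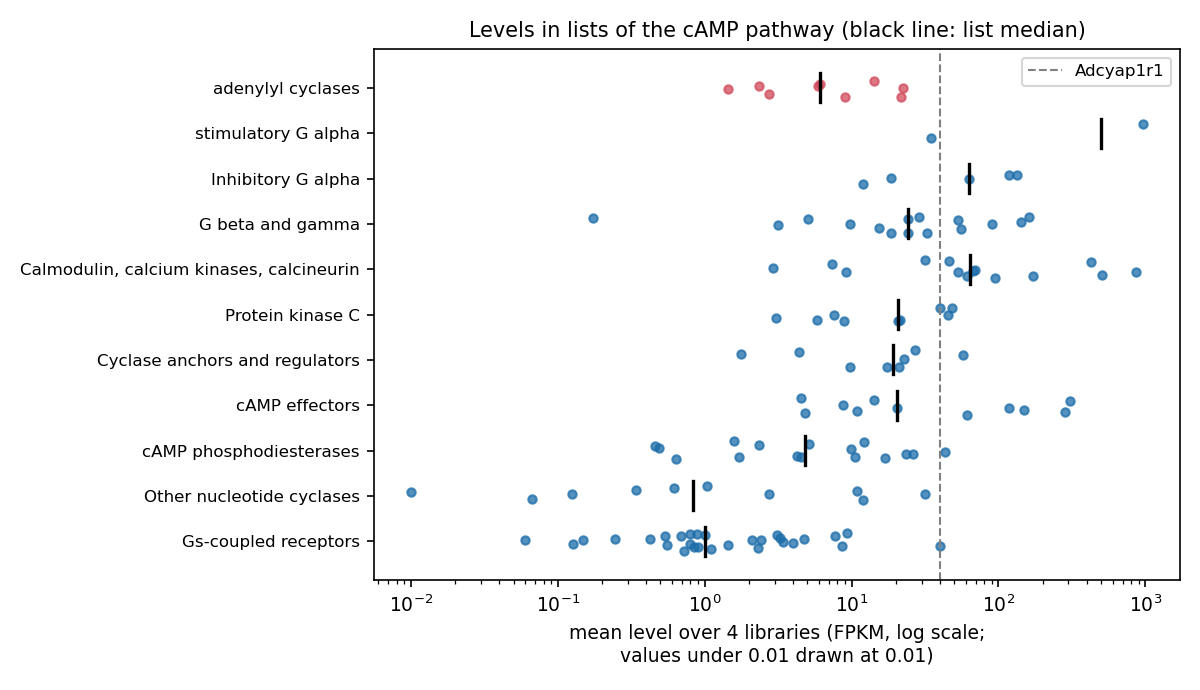
Mean level over 4 libraries, in FPKM on a log axis, of the 9 adenylyl cyclase genes (red) and of the genes of 10 lists of the cAMP pathway (blue), with a black line at each list's median a dashed line at Adcyap1r1 and values under 0.01 drawn at 0.01. The 9 cyclases lie between 1.45 and 22.5 FPKM, left of the dashed line, while Calm3, Calm2 and Gnas lie at 504, 858 and 967 FPKM.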

How the data were processed

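RNA was extracted with TRIzol and mRNA libraries were sequenced from 4 naive samples, per the labels' protocols. No label or header names the unit, and the deposited values were taken to be FPKM because of how they scale with transcript length and depth. GRCm38 is the assembly per the submitters' processing notes, while aligner, quantification program, annotation and strandedness were not given in the sources used here. Between 26.2% and 26.9% of low values lay within 0.05 of a whole fragment, so counts were not recovered and no counting intervals were computed. The implied depth is an estimate.

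Symbols and coordinates came from GENCODE M21 (22022 of 25044 entries matched) and promoter windows from RefSeq (GRCm38.p6). A mean of at least 0.1 FPKM was required, which left 17630 genes. Within-library differences of log2(FPKM + 0.1), on which low genes show smaller differences than they have, were fitted with an intercept by limma 3.58.1 in R 4.3.3. Its 2-sided p-values were adjusted by Benjamini and Hochberg's method across 17629 genes. All differences share the reference gene's deviation, so the prior degrees of freedom, from a trend on level, were limited to the 3.78 obtained when gene levels themselves were fitted. For pairs, the alphabetically first member was the reference. The fit was tested on simulated data. Python 3.11.15 was used otherwise. Members, lists, tests and the limit on the prior were chosen with earlier results of these data known.

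Named were the members, Adcyap1r1, the 3 most abundant genes of each of 10 lists, and the 3 nearest profiles for each of the 3 members with the largest SD. Some genes that this rule names are not reported here. Other names were chosen after their values were seen, including the markers given beside a result. Alternatives were other added values (1 and 0.01), other filters, other priors, leaving out each library, a scale without mitochondrial transcripts and class medians.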

Additional observations from a re-analysis of the deposited data

Results flagged for a closer look

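Dixon's test, which by chance marks about 5% of groups, marked 1 library as distant from the rest for 6 of 41 values. All 6 were in replicate 3, the library with the highest sum of thalamus markers, and the values share that library, so they are not independent. The sum of Adcy1, Adcy3 and Adcy8 was high there at 37.4 FPKM against 25.7 to 27.7. Prkcd was high at 172 FPKM against 3.72 to 13.4, and the receptor gene Gpr12 at 12.6 against 6.73 to 7.71. Gnb2 was low at 128 FPKM against 148 to 149, Prkar1b at 279 against 317 to 322, and Prkacb at 122 against 157 to 161. Adcy1 by itself was not among the 6.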

How the results depend on the processing

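All 9 members stayed lower than Adcyap1r1 under every alternative run, and 0 were higher. The passing pairs numbered 25 to 31 when libraries were left out, 28 without a filter, and 31 with the other member as reference, an alternative chosen after seeing the data, as was a prior without trend, which gave 30. Calls lost without a library all involved Adcy1. Without a filter Adcy2 against Adcy1 and Adcy1 against Adcy7 were lost, at 1.46 (adjusted p = 0.0558) and 1.54 (adjusted p = 0.0537). Differences that changed sign were between pairs that had not passed: over the left-out libraries Adcy1 minus Adcy6 ran from -0.0476 (without replicate 3) to 0.624, Adcy1 minus Adcy8 from -0.0111 (without replicate 3) to 0.549, Adcy8 minus Adcy6 from -0.0365 (without replicate 3) to 0.148, Adcy5 minus Adcy2 from -0.00715 (without replicate 4) to 0.0892, and Adcy7 minus Adcy9 from -0.0852 (without replicate 1) to 0.412. Among pathway genes 24 to 25 were higher and 83 to 87 lower when libraries were left out, and 65 lower with a filter of 1 FPKM, where fewer genes are tested. The share of the calcium-stimulated class ran from 31.4% to 35.1%, of the Gi-inhibited class from 32.3% to 34.2%, of the beta-gamma class from 29.3% to 31.8% and of Adcy9 from 2.60% to 2.99% without a library. With the median of a class in place of its sum, the Gi-inhibited class held 52.2% and the calcium-stimulated class 29.2%. The beta-gamma class held 10.04% and Adcy9 8.51%. Unlike a sum, a median does not grow with the number of genes in a class, and the classes differ in that number. In the calcium-stimulated and beta-gamma classes it also gives the highest member less weight. Between 4 and 5 members exceeded the median SD of like genes. The SD of Adcy1 was 0.28 without replicate 3. No paired analysis was possible because there is 1 group. What depth limits was not tested, since no counting intervals could be computed.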
